A study of Mus musculus with 6 samples.

Results

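Axon guidance genes encode the cues and receptors that steer growing axons and migrating neurons, and 68 of them were identified among the 43346 genes of the count table. They were chosen by symbol, as the protein-coding semaphorins of classes 3 to 7, ephrins, Slits and netrins on the ligand side (34 genes) and the plexins, neuropilins, Eph receptors, Robo receptors, Dcc and Unc5 receptors on the receptor side (34 genes). The rule uses symbols and no measured value, although the families were picked with earlier results of these data known. The RNA came from primary cortical cell cultures of Cyp19-EGFP, SRY+ mouse fetuses at gestational day 15.5, which had received DMSO as vehicle or 10HDA (10-hydroxy-2-decenoic acid, a fatty acid of royal jelly) at 1 mM. The strain is the one in the sample labels, and the study's methods give C57BL/6 instead. There were 3 libraries of each treatment, 1 of each from cultures 1, 3 and 4, and the comparison asked which transcripts differed after 10HDA.

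Guidance cues act over short or long range. Semaphorins are secreted or membrane-bound and signal through plexins, with neuropilins as co-receptors for the secreted class 3 members. Ephrins are membrane-anchored and signal through Eph receptors on neighbouring cells, and they can also signal in reverse. Slits are secreted proteins that repel axons through Robo receptors, and netrins attract axons through Dcc or repel them through Unc5 receptors. In the fetal cortex these families act in the migration of projection neurons and interneurons and in the growth of callosal, corticofugal and thalamocortical axons.

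The libraries held 9144736 to 13367194 counts on genes, at which 3 counts correspond to 0.224 to 0.328 CPM (the count of a gene relative to its library total), a limit that covers counting error only. Levels are given as CPM after TMM scaling, which adjusts those totals for composition. Both libraries of culture 1 stood apart from their label: 4 Y-linked genes summed to 8.88 CPM with vehicle and 9.09 CPM with 10HDA in culture 1, against 95.8 to 133 CPM in the other 4 libraries. The guidance genes called and the ligand and receptor medians are therefore also given without culture 1. Other results cover all cultures unless stated. Shared neuronal markers summed to 7867 to 9929 CPM in every library, and microglial markers to 0.772 to 1.26 CPM, with Tmem119 at 0 in all 6. Nothing in the labels states how many fetuses a culture pooled.

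The guidance genes ranged widely in level. A total of 15 members did not reach 10 CPM in at least 3 libraries and were not tested, which left 27 ligands and 26 receptors. Of these 15, the ligands were Efna1, Efna4, Ntn5, Sema3b, Sema3d, Sema3e and Sema3g, and the receptors Unc5b, Epha1, Epha2, Epha6, Ephb4, Plxnb3, Robo3 and Robo4. Ntn5 had no count in any vehicle library, and Robo4, an endothelial Robo, was between 0 and 0.144 CPM. Unc5b, at 8.07 to 12.4 CPM, lay just under the limit, and Efna5, at 9.0 to 13.3 CPM, just above it.

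Per kilobase of exon, the highest level was that of Efnb3, a transmembrane ephrin, with 108 ± 9.73 CPM per kb in vehicle libraries (SD, n = 3). Efnb2 followed at 53.5 ± 2.87, well below Efnb3 relative to their spread. Plxnd1 (48.0 ± 6.8), Plxna1 (45.0 ± 6.39) and the semaphorin Sema4g (44.0 ± 5.62) came next and did not differ from each other beyond their spread. Robo1 (26.7 ± 5.22) and Slit1 (24.4 ± 2.45), a receptor and one of its ligands, also lay within each other's spread. The netrins were low, with 3.44 ± 0.0555 for Ntn4 and 3.03 ± 0.371 for Ntn1, close to the netrin receptor Dcc at 3.41 ± 1.39.

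**Figure D1:**
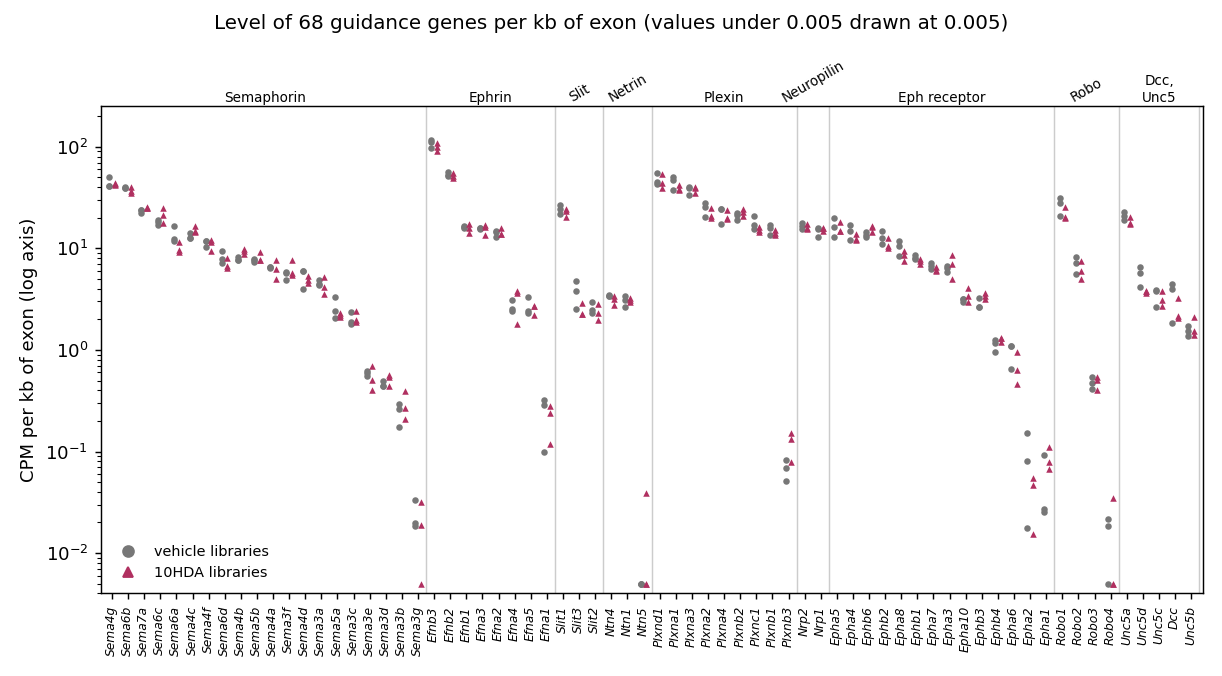
Level of each of the 68 guidance genes in CPM per kb of exon on a log axis, by family, with 1 point per library (grey circles, 3 vehicle libraries; red triangles, 3 10HDA libraries). Vehicle means run from 108 for Efnb3 down to 0 for Ntn5, and the 2 treatments lie close together at nearly every gene.

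Summed over the 34 members of each side, ligands came to 462, 463 and 471 CPM per kb in the vehicle libraries of cultures 1, 3 and 4 and to 446, 474 and 440 in the 10HDA libraries. Receptors came to 377, 442 and 468 with vehicle and to 388, 391 and 428 with 10HDA. The ratio of receptor to ligand was 0.816, 0.954 and 0.993 with vehicle and 0.870, 0.825 and 0.973 with 10HDA, so the treatments overlapped. The lowest receptor sum and the lowest ratio were those of the vehicle library of culture 1.

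No guidance gene differed between 10HDA and vehicle when the 3 libraries of each treatment were compared without pairing, since the methods of the study name edgeR and no culture term. In that test (edgeR's quasi-likelihood test, Benjamini-Hochberg adjusted p under 0.1), 0 of 53 members passed, where 0.627% of all 10520 genes tested did. There were 4 members with an unadjusted p below 0.05 (7.55% of the members, against 10.1% of all genes), namely Unc5d, Sema6a and Slit3, which were lower with 10HDA, and Sema4b, which was higher. DESeq2 called 1 member, Unc5d, where 1.62% of all genes were called. The estimates were fairly narrow, since 41 of the 53 members had a 95% interval that lay within 0.5 of no change on the log2 scale.

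Pairing the libraries by culture gave 5 calls, all lower with 10HDA: the transmembrane semaphorin Sema6a, the secreted ligand Slit3, and the receptors Unc5d, Dcc and Robo1. These are 9.43% of the 53 members. Over all genes, 8.98% were called with culture as a block and 5.08% were called lower, so the share of members called in either direction was near that of all genes. The same test on genes above 1 CPM called 3 of 61 members (Sema6a, Slit3 and Unc5d), where 7.5% of all genes were called. When the counts were scaled by library size alone, the block gave 7 calls of 53, where 12.0% of all genes were called. Of these 7, 3 were lower (Sema6a, Slit3 and Unc5d) and 4 higher (Sema4b, Sema4c, Sema6c and Ephb6).

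**Figure D2:**
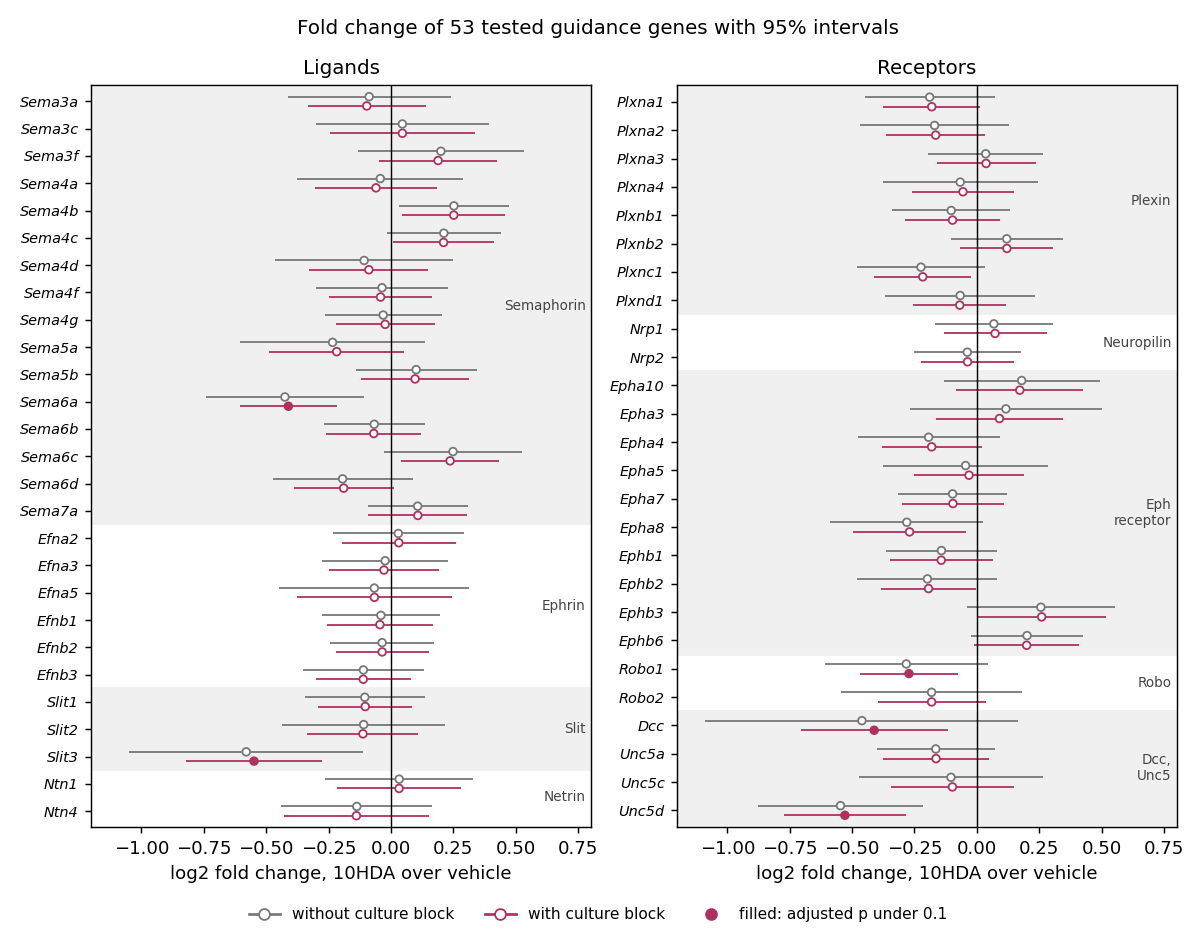
Log2 fold change of 10HDA over vehicle for the 27 ligands and 26 receptors tested, with 95% intervals, by family (grey, without the culture block; red, with it; filled points, adjusted p under 0.1). The filled points are Sema6a, Slit3, Robo1, Dcc and Unc5d, all with the block and all below 0.

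Marker genes of cell types were also compared, where 0.627% of all genes passed without the block and 8.98% with it. No marker of shared neurons, excitatory neurons, interneurons, radial glia or intermediate progenitors passed without the block. The sums of interneuron, excitatory neuron and oligodendrocyte lineage markers overlapped between the treatments. Astrocyte markers were lower in 9 of 11 tested and summed to 1323 to 1618 CPM with vehicle and 1016 to 1242 with 10HDA. Of them, 5 passed without the block and 6 with it, all lower. Shared neuronal markers were lower in 11 of 12, with sums of 9447 to 9929 against 7867 to 8848 CPM, and 4 passed with the block. Interneuron markers were lower in 10 of 11, with sums of 597 to 752 against 499 to 681 CPM. Of that list 5 passed with the block, all lower. Markers of the oligodendrocyte lineage were lower in 5 of 8, with sums of 357 to 459 against 271 to 386 CPM. Without the block 1 of that list passed, Cspg4, at 16.6 to 20.7 against 8.49 to 11.4 CPM. With the block 3 passed, all lower: Cspg4, Pdgfra (log2 fold change -1.26) and Sox10 (-1.53). Olig1, Olig2 and Mog had fold changes above 0 and did not pass. Of 7 intermediate progenitor markers only 4 were tested, all of them higher, and 2 passed with the block, Btg2 and Hes6. The sums over all 7 were 176 to 205 against 207 to 231 CPM, of which Elavl2 held 91.4 to 112 against 97.1 to 113 CPM. Eomes, Neurog1 and Neurog2 were below the filter, and Eomes overlapped at 2.0 to 3.25 against 1.21 to 3.26 CPM. Radial glia markers were lower in 5 of 7, with sums of 1450 to 1626 against 1287 to 1372 CPM. With the block 2 of them passed as lower and 1 as higher. Excitatory neuron markers were lower in 8 of 12, with sums of 2368 to 2854 against 2219 to 2500 CPM, and 2 passed as lower with the block. Of the endothelial and pericyte list only Pdgfrb was tested, at 14.9 to 15.8 against 6.04 to 9.43 CPM, and it passed with and without the block. The endothelial markers Cldn5 and Tie1 were between 0 and 0.144 CPM. The part of these cell types in the guidance results was not tested, and in bulk RNA fewer cells of a type cannot be told apart from less RNA per cell.

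Among the semaphorins, 9 of 16 tested members were lower and 7 higher, with a median log2 fold change of -0.033, and with scaling by library size alone 5 were lower and 11 higher. Sema6a, a class 6 ligand of plexins A2 and A4, was at 108, 103 and 147 CPM in the vehicle libraries of cultures 1, 3 and 4 and at 84.8, 81.2 and 101 CPM in the 10HDA libraries. Every 10HDA library was below every vehicle library. Its log2 fold change was -0.42 (SE 0.14, adjusted p = 0.359 by edgeR) and -0.41 with the block (SE 0.095, adjusted p = 0.0086). Leaving out culture 4 took the blocked adjusted p to 0.289, with a fold change of -0.34, and leaving out culture 1 or 3 left it called. Its class 6 relatives did not share one direction, since Sema6d was at -0.19 and Sema6c at 0.25, both with adjusted p above 0.1 in either fit.

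Sema4b, a transmembrane class 4 semaphorin, was at 41.8, 45.0 and 41.4 CPM with vehicle and at 48.3, 53.4 and 50.8 CPM with 10HDA. All 10HDA libraries were above all vehicle libraries, with a log2 fold change of 0.25 (SE 0.10, unadjusted p = 0.0291, adjusted p = 0.440 by edgeR, and 0.15 with the block). Sema4c (58.4 to 65.2 against 67.2 to 76.2 CPM) and Sema7a (74.1 to 79.2 against 81.9 to 83.8 CPM) were likewise separated, with fold changes of 0.21 and 0.11 that did not pass. The most abundant semaphorin by CPM, Sema4g, was at 199, 198 and 246 CPM with vehicle and at 211, 212 and 205 CPM with 10HDA. Its groups overlapped, and the log2 fold change was -0.031 (95% interval -0.27 to 0.20). The secreted class 3 members tested were Sema3a, Sema3c and Sema3f, with fold changes of -0.087, 0.046 and 0.20.

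The ephrins showed the narrowest range of any family with more than 3 tested members, from -0.11 to 0.030 over 6 genes, of which 5 were lower with TMM scaling and 1 with library size alone. Efnb3 was at 372, 352 and 311 CPM with vehicle and at 318, 349 and 289 CPM with 10HDA. It was lower within each culture, but the groups overlapped and the difference did not pass (log2 fold change -0.11, 95% interval -0.35 to 0.13). Efnb2, which also marks arteries and acts as a ligand of EphB receptors, was at 222 to 246 CPM with vehicle and 213 to 240 CPM with 10HDA.

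All 3 Slits were lower with 10HDA, also with library size alone, and 1 passed with the block. Slit3 was at 15.3, 22.9 and 29.0 CPM in the vehicle libraries and at 13.7, 13.8 and 17.8 CPM in the 10HDA libraries. The groups overlapped, because the vehicle library of culture 1 lay below the 10HDA library of culture 4. The log2 fold change was -0.58 (SE 0.21, adjusted p = 0.403 by edgeR), and -0.55 with the block (SE 0.13, adjusted p = 0.0122). Within cultures 1, 3 and 4 the log2 ratio was -0.16, -0.73 and -0.70. The blocked adjusted p was 0.000442 without culture 1, 0.0367 without culture 3 and 0.199 without culture 4, and DESeq2 with the block gave 0.145.

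Slit1, the most abundant Slit, was at 130, 145 and 159 CPM with vehicle and at 121, 138 and 144 CPM with 10HDA, lower by little in each culture (log2 fold change -0.10, 95% interval -0.35 to 0.14). Slit2 had a similar value of -0.11. Neither passed in either fit.

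Only 2 netrins were tested. Ntn1, the classical attractant for Dcc-bearing axons, was at 19.4, 21.2 and 16.6 CPM with vehicle and at 19.6, 20.2 and 18.4 CPM with 10HDA. These values overlapped, with a log2 fold change of 0.033 (95% interval -0.26 to 0.33). Ntn4 had -0.14.

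The netrin receptors were lower in 4 of 4 tested under TMM scaling and library size alone, with a TMM median of -0.31, and they held 2 of the 5 blocked calls. Without culture 3 there were 3 lower and 1 higher, and the median within culture 1 was 0.027. Unc5b, left out by the filter, had log2 ratios of 0.019, 0.29 and 0.0084 in cultures 1, 3 and 4 (0.15 in the unpaired fit above 1 CPM, not called). Unc5d, an Unc5 receptor of upper-layer neurons that also binds Flrt proteins, was at 37.6, 58.6 and 50.6 CPM in the vehicle libraries and at 34.1, 32.2 and 34.1 CPM in the 10HDA libraries. Every 10HDA library was below every vehicle library, and the 10HDA libraries differed by under 2 CPM. The log2 fold change was -0.55 (SE 0.15, unadjusted p = 0.00391, adjusted p = 0.244 by edgeR) and -0.53 with the block (SE 0.12, adjusted p = 0.00693). Unc5d was the one member that passed in each of the 7 fits with the block, including those without culture 1, 3 or 4 (adjusted p from 1.6e-05 to 0.0541). Without the vehicle library of culture 1 it also passed unpaired.

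Dcc, the attractive netrin receptor, was at 14.7, 31.9 and 35.9 CPM with vehicle and at 16.8, 17.4 and 26.2 CPM with 10HDA. It was higher with 10HDA in culture 1 and lower in cultures 3 and 4, with log2 ratios of 0.19, -0.87 and -0.45. The blocked log2 fold change was -0.41 (SE 0.14, adjusted p = 0.0938 by edgeR), against -0.46 (SE 0.29, adjusted p = 0.595) without the block. The call rested on the cultures included: the adjusted p was 0.000717 without culture 1, 0.544 without culture 3 and 0.338 without culture 4. It was also not called above 1 CPM (adjusted p = 0.128) or by DESeq2 with the block (0.463).

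Unc5a, the most abundant member of this family, was at 85.9, 79.7 and 94.1 CPM with vehicle and at 72.5, 84.8 and 73.8 CPM with 10HDA. The groups overlapped and the log2 fold change was -0.16 (95% interval -0.40 to 0.073). With the block and without culture 3 it was -0.29 and passed (adjusted p = 0.0779 by edgeR). Unc5c had -0.10, with log2 ratios of 0.24, -0.51 and -0.013 in cultures 1, 3 and 4.

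Both tested Slit receptors were lower, so that 5 of 5 tested Slit and Robo genes were under TMM scaling (median -0.18) and under library size alone (median -0.11). Robo1 was at 158.8, 210.4 and 236.3 CPM in the vehicle libraries and at 149.5, 155.5 and 192.5 CPM in the 10HDA libraries. It was lower within each culture, by log2 ratios of -0.087, -0.44 and -0.30, while the groups overlapped because of the vehicle library of culture 1. The log2 fold change was -0.28 (SE 0.15, adjusted p = 0.534 by edgeR) and -0.27 with the block (SE 0.095, adjusted p = 0.0938). As for Dcc, the call was present without culture 1 (adjusted p = 0.0329) and absent without culture 3 (0.313) or culture 4 (0.516), above 1 CPM (0.126) and by DESeq2 with the block (0.232). Robo2 was at 91.9 to 135 CPM with vehicle and 83.1 to 124 CPM with 10HDA, higher in culture 1 and lower in cultures 3 and 4.

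The sequence before the RefSeq start of Robo1 is shown because Robo1 had the highest CPM of the 5 genes called with the block. The 250 bases lie at chr16:72662899-72663148 on the plus strand of GRCm38, inside the 737.8 kb span that GENCODE gives the gene, and the capitals mark CG dinucleotides, of which there are 11.

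Robo1: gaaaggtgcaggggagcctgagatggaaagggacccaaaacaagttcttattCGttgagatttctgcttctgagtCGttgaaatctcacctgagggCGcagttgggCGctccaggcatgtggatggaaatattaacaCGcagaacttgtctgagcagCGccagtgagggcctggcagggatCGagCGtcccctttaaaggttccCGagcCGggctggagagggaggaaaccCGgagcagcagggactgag

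RefSeq promoter windows (250 bases before to 50 after a start) were found for 58 of the 68 members, 74 windows in all. The other members were Dcc, Efnb3, Ntn1, Plxna1, Plxna4, Sema3b, Sema3f, Sema6a, Slit1 and Unc5d. The first 250 bases of the 74 member windows held a median of 15.5 CG dinucleotides and 64.4% G and C. Over all 32851 windows these were 6 and 52.4%. An estrogen response element (GGTCANNNTGACC, both strands) was in 0 of the 74 member windows and in 0.07% of all windows. A cAMP response element (TGACGTCA) was in 1 member window, that of Epha2, and in 1.79% of all. The core of the antioxidant response element (TGACNNNGC) was in 9 member windows and in 12.4% of all. Such matches describe the letters of the window and are not evidence of binding.

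Plexins were lower in 6 of 8 tested, with a median of -0.085 (4 of 8 and -0.0072 with library size alone), and none passed with or without the block. Plxna2, a receptor of Sema6a and of class 3 semaphorins bound to neuropilins, was at 353, 440 and 482 CPM with vehicle and at 359, 339 and 434 CPM with 10HDA. The groups overlapped, with a log2 fold change of -0.17 (95% interval -0.47 to 0.13). Plxnc1, the receptor of Sema7a, had the lowest value among plexins, at -0.22 (unadjusted p = 0.0816 by edgeR, 0.0301 with the block), and its groups overlapped. Plxna4, whose span also holds 3 antisense genes that averaged 0.267 CPM together, had -0.067.

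The neuropilins, co-receptors of class 3 semaphorins, were close to no change. Nrp2 was at 184, 197 and 212 CPM with vehicle and at 187, 184 and 206 CPM with 10HDA, with overlapping groups and a log2 fold change of -0.038 (95% interval -0.25 to 0.18). Nrp1 had 0.068.

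Eph receptors divided into 6 lower and 4 higher of 10 tested (5 and 5 with library size alone), and none passed with or without the block over all 3 cultures under TMM scaling. Epha5, the most abundant by CPM, was at 131, 201 and 163.5 CPM with vehicle and at 148, 149 and 183 CPM with 10HDA. It was higher with 10HDA in cultures 1 and 4 and lower in culture 3, with a log2 fold change of -0.045 (95% interval -0.38 to 0.29). Ephb1 was lower in every 10HDA library (51.4 to 56.4 against 45.5 to 50.5 CPM) and the kinase-dead receptor Ephb6 higher in every one (49.2 to 54.1 against 54.7 to 62.0 CPM), without either passing. Epha8 at -0.28 and Ephb3 at 0.26 were the extremes of the family. With the block, Ephb3 passed without culture 1 (0.42, adjusted p = 0.0811), and Epha3 (0.33, adjusted p = 0.0726) and Epha8 (-0.42, adjusted p = 0.00898) passed without culture 3, all by edgeR.

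**Figure D3:**
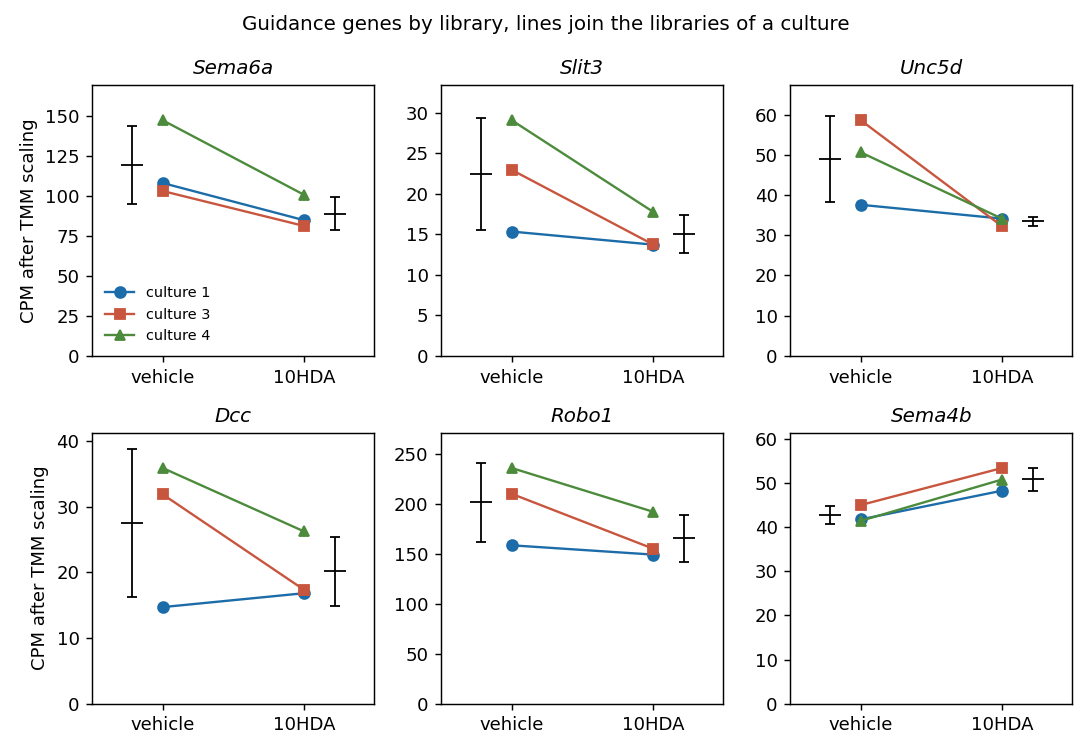
CPM after TMM scaling in each library for the 5 genes called with the culture block and for Sema4b, with lines joining the libraries of a culture and black bars giving the mean ± SD of 3 libraries. The vehicle library of culture 1 is the lowest vehicle library for Slit3, Unc5d, Dcc and Robo1, and Dcc alone of the 6 genes moves in opposite directions between cultures.

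Over all 53 tested members, 37 were lower with 10HDA and 16 higher (69.8% lower, against 52.1% of all genes tested), and the median log2 fold change was -0.067 against -0.0095 over all genes. With scaling by library size alone, 25 of 53 were lower and the medians were 0.0096 and 0.067, so the members stood 0.057 below all genes under both scalings while the direction of their own median depended on it. Ligands had a median of -0.040 and receptors of -0.10, and relative to all genes these were -0.031 and -0.094. Without culture 3 both sides lay at about the same value, -0.043 for ligands and -0.039 for receptors (-0.036 and -0.032 relative to all genes). Without culture 1 ligands and receptors were at -0.041 and -0.147 relative to all genes, and without culture 4 at -0.010 and -0.112. By culture, the receptor median was 0.027, -0.24 and -0.14 in cultures 1, 3 and 4, and the ligand median was -0.015, -0.012 and -0.051. In 3 members every 10HDA library was below every vehicle library (5.66%, against 7.62% of all genes), and in 4 every 10HDA library was above (7.55%, against 5.84%).

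The vehicle library of culture 1 was the lowest of the vehicle libraries in 32 of 53 members (60.4%, against 36.5% of all genes). This held for 20 of 26 receptors and for 12 of 27 ligands. The median log2 ratio of that library to the mean of the other 2 vehicle libraries was -0.27 for receptors and -0.049 for ligands, against 0.0061 over all genes. For the 10HDA libraries the same ratio was -0.078 for both sides.

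Guidance genes include some of the longest genes of the genome, and the members that passed with the block were long. Dcc spans 1097 kb, Robo1 737.8 kb, Slit3 587.3 kb (chr11:35121224-35708507), Unc5d 572.9 kb (chr8:28646717-29219636) and Sema6a 133 kb, with spans from GENCODE on GRCm38. Of 29 tested members over 100 kb, 24 were lower (82.8%), with a median of -0.11 and 5 blocked calls (17.2%). Of 24 up to 100 kb, 13 were lower (54.2%), with a median of -0.027 and 0 blocked calls. All genes showed the same kind of split. Over 100 kb, 75.0% of 1622 genes were lower, with a median of -0.10 and 12.1% called lower with the block. Up to 100 kb, 48.0% of 8860 genes were lower, with a median of 0.0073 and 3.78% called lower with the block. The 6 members over 500 kb were all lower, with a median of -0.37 and 4 blocked calls (66.7%). Of all 156 genes of that span, 86.5% were lower, with a median of -0.20 and 26.3% called lower with the block.

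The rank correlation of fold change with span was -0.58 over the 53 members and -0.21 over 10482 genes, with every point drawn from the same 6 libraries. It came mainly from culture 3, where it was -0.84 for members and -0.42 for all genes. In culture 4 it was -0.18 and -0.15, and in culture 1 it was -0.00024 and 0.13. Without culture 3 the value was -0.18 for members and -0.0095 for all genes, and without culture 1 it was -0.67 and -0.36. Among vehicle libraries alone, the log2 ratio of culture 1 to the mean of cultures 3 and 4 correlated with span at -0.70 for members and -0.52 for all genes, so long genes were also lower in that vehicle library. The part of gene span in the 5 calls was not tested.

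**Figure D4:**
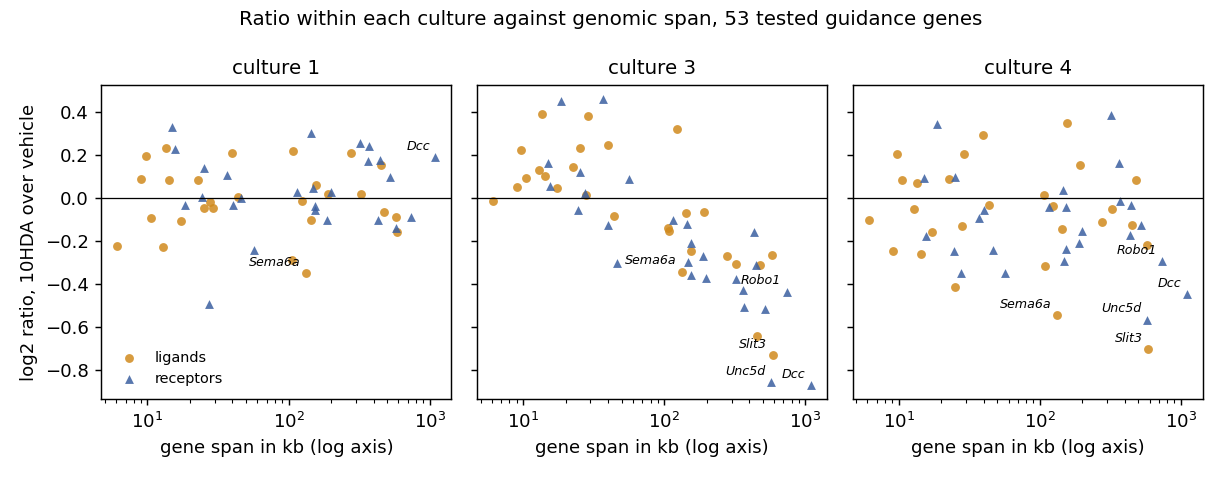
Log2 ratio of 10HDA to vehicle within each culture against gene span in kb on a log axis for the 53 tested members (circles, ligands; triangles, receptors). The points fall with span in culture 3 (rank correlation -0.84) and scatter around 0 in culture 1, where Dcc lies above 0.

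Other genes of guidance signalling were counted from lists of related cues, effectors and partners. Among 24 tested cues and receptors outside the families above, 19 were lower and 1 passed: Reln, a secreted glycoprotein that positions migrating neurons. It is also a marker of Cajal-Retzius cells, but of 6 such markers it was the only 1 tested. Trp73, Lhx1, Lhx5, Ebf2 and Ndnf were below the filter, with Ndnf the highest at 3.26 to 8.48 CPM. The cell source of Reln was not tested. Reln was at 123, 154 and 142 CPM with vehicle and at 90.6, 88.8 and 87.8 CPM with 10HDA, without overlap, with a log2 fold change of -0.64 (SE 0.10, adjusted p = 0.0428 by edgeR). That call was lost without the vehicle library of culture 3 (adjusted p = 0.166) or culture 4 (0.187) or the 10HDA library of culture 1 (0.305) or culture 3 (0.123), and without any whole culture (0.118 to 0.399), and it held with the block (adjusted p = 0.000139). Among 48 tested intracellular effectors, 36 were lower, 0 passed without the block and 5 passed with it, all lower. These were Srgap1 (-0.30), a GTPase-activating protein bound by Robo receptors, Crmp1 (-0.29), a mediator of class 3 semaphorin signals, Farp1 (-0.26) and Ngef (-0.44), exchange factors that act with plexins and EphA receptors, and Mical2 (-0.29), an actin oxidase of the MICAL family. Among 15 adhesion and proteolytic partners, 9 were lower and 2 passed with the block, the adhesion molecule L1cam (-0.28) and the proteoglycan Sdc3 (-0.32). Members of all 3 lists were called lower with the block at 1 of 24, 5 of 48 and 2 of 15, beside 5.08% of all genes. Of these calls other than Reln, all 7 were lost without culture 4, 4 were lost above 1 CPM (Crmp1, Farp1, Mical2 and L1cam), 5 by DESeq2 with the block (those and Srgap1) and all but Ngef with library size alone.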

How the data were processed

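RNA of 3 vehicle and 3 10HDA libraries was sequenced as 50 bp single-end reads from a strand-specific kit. Per the methods, untrimmed reads were mapped by the authors with Subjunc (Subread 1.4.4) on mm10, and featureCounts summed them over GENCODE genes. The strand setting of the counting was not given in the sources used here, so antisense partners (26 of 68 members overlap a gene on the opposite strand) may share reads. The deposited values are raw counts, neither normalized nor filtered by the authors. Columns of further samples numbered 0. The members, lists and tests were chosen with earlier results of these data known.

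Identifiers were matched without version to GENCODE M21 (98% matched). The 10520 genes that reached 10 CPM in 3 or more libraries were compared with edgeR 4.0.16 (TMM, glmQLFit and glmQLFTest) in R 4.3.3, two-sided, with Benjamini-Hochberg adjustment over all genes and a threshold of 0.1, as in the study's methods. SEs are the fold change over the square root of F. Ratios within a culture used a prior count of 2. The labels place 1 library of each treatment in each culture, so culture served as a block in the paired alternative. As a check, deviations from the treatment means correlated across genes at 0.368, 0.235 and 0.616 within cultures 1, 3 and 4, and at -0.449 to 0.183 between cultures. No label says that cultures came from separate litters, so the p-values cover these cultures only. Without the block they set the treatment difference against the spread between libraries of a treatment. With the block they set it against the variation left after culture and treatment. In both fits edgeR estimates that variation partly from other genes. A gene's p-value therefore does not rest on its own cultures alone, and a call does not show that the cultures agreed. With 3 libraries against 3 an exact permutation test cannot go below 0.1, so none was used.

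Members with an unadjusted p below 0.05, a call with the block or above 1 CPM, or the highest CPM of their family are given in every library, and others by range, count or fold change. Of the 3 lists of related genes, those called are named. Alternatives were other scalings, DESeq2 1.42.0, other filters, the block, and each library or culture left out. On simulated data (10520 genes, 200 changed by a log2 fold change of 1), 200 were recovered with 26 false calls, and 200 with 12 with the block. Culture differences were simulated only for the fit with the block. Fold changes of the members lay between -0.58 and 0.26, so recovery at their size was not tested. Ntn3 was not analysed here. Sequences are from RefSeq (GRCm38.p6).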

Additional observations from a re-analysis of the deposited data

How the results depend on the processing

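The count of all genes called (66) and of members called (0) depended most on the culture block. With the replicate block there were 945 calls, 5 of them members, with the block and the 1 CPM filter 1148 and 3, with the block and library size alone 1265 and 7, and with the block and DESeq2 389 and 2. With the block and without culture 1, 3 or 4 there were 869, 1089 and 358 calls, of which 6, 6 and 1 were members. Without the block, DESeq2 gave 170 and 1, no filter 636 and 3, and an adjusted p below 0.05 gave 43 genes. Leaving out 1 library or 1 culture without the block gave 0 to 355 calls over all genes (0 without the 10HDA library of culture 1, where 453 genes had an unadjusted p below 0.05 by edgeR, and 0 without culture 3, where 689 had) and 0 or 1 among members, the 1 being Unc5d without the vehicle library of culture 1.

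The ligand median of -0.040 was 0.038 with library size alone, 0.032 with the block and library size alone and -0.010 with upper quartile scaling, and -0.046 to -0.013 with a library or culture left out. The receptor median of -0.10 was -0.026 with library size alone, -0.022 with the block and library size alone and -0.166 to -0.035 with a library or culture left out without the block, each within the spread between cultures (SD 0.135).

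Over the 53 members tested, 12 turned direction with library size alone, 2 with upper quartile scaling and 2 to 10 with a library or culture left out, 24 in at least 1 of all alternatives, and 0 of the 5 called with the block did so. Among the members given in every library, 4 near 0 turned. Epha5 became 0.028 with library size alone, 0.044 with the block and library size alone, and 0.17 with the block without culture 3, and ranged from -0.165 to 0.171 with libraries left out. Nrp2 became 0.038 and 0.039 with library size alone without and with the block, and ranged from -0.0891 to 0.0332 with libraries left out. Ntn1 ranged from -0.039 to 0.14 with libraries left out and -0.016 with the block without culture 4. Sema4g became 0.049 with library size alone, 0.00032 with upper quartile scaling, 0.053 with the block and library size alone and 0.0998 with the block without culture 4, and ranged from -0.0935 to 0.0998. The causes were not tested. The other 10 members given in every library kept their direction. Levels near 10 CPM, such as Efna5, limit what 3 libraries can show.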
